A study of Mus musculus with 1 sample.

Results

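The genes described here are 7 secreted or membrane-bound signals of T cells, namely the chemokines Ccl5, Ccl4, Ccl3 and Xcl1 and the cytokines Ifng, Tnf and Ltb, of 32285 genes counted. Their unique molecular identifiers (UMIs, each standing for 1 captured RNA molecule) were summed over the 1600 barcodes with at least 1331 UMIs, which are called cells. These were sorted by their own UMIs into CD4-only cells (Cd4 and neither Cd8a nor Cd8b1) and CD8-only cells (Cd8a or Cd8b1 and no Cd4), each with or without a UMI of the granzyme genes Gzmk, Gzma or Gzmb. The 4 classes held 1088 cells, of which 358 were CD4-only without granzyme, 11 CD4-only with granzyme, 611 CD8-only without granzyme and 108 CD8-only with granzyme. A further 49 cells had UMIs of both coreceptors and 463 of neither.

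The cells came from the blood of 1 mouse bearing autochthonous small cell lung cancer (SCLC), which received vehicle (phosphate-buffered saline) every 3 days. In this model, on a C57BL/6 background, conditional alleles of Rb1 and Trp53 are deleted by Adeno-Cre virus given into the trachea, so the deletion is aimed at airway cells and not at circulating T cells. The study used both sexes and states only a minimum age, and the exact age and sex of this mouse are not given in the sources used here. From 150 µl of blood, T cells were enriched by removing other cells with a pan T cell kit after red cell lysis, and gene expression and T cell receptors were read from the same barcodes on the 10x platform. With 1 library of 1 mouse there was no replicate, so no test was made and no p-value is given. The 95% intervals are exact Poisson (levels), exact conditional binomial (ratios) and exact binomial (shares), and all cover counting error only. A cell that made less RNA of a gene cannot be told apart from one in which less of it was captured.

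Chemokines are small secreted proteins that direct the movement of leukocytes through receptors on the target cell. Ccl5, Ccl4 and Ccl3 are CC chemokines made by activated and memory T cells and by natural killer (NK) cells, whereas Xcl1 acts through Xcr1, a receptor of cross-presenting dendritic cells. Interferon gamma (Ifng) and tumour necrosis factor (Tnf) are effector cytokines whose transcripts are short-lived and rise on stimulation, and lymphotoxin beta (Ltb) is a membrane-bound TNF family ligand that many resting lymphocytes express.

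The called cells had 1334 to 18399 UMIs, with a median of 3934.5. At least 2 of 5 T cell markers (Cd3d, Cd3e, Cd3g, Trac, Trbc2) were found in 86.6% to 97.2% of the cells of the 4 classes. In 614 called cells ribosomal protein genes took under 10% of the UMIs. Such cells made up 39.4% of the CD4-only and 32.4% of the CD8-only cells without granzyme, 9.26% of the CD8-only cells with granzyme and none of the 11 CD4-only cells with granzyme. Free RNA was read from 20532 barcodes of 10 to 50 UMIs.

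RefSeq places Ccl5 on chromosome 11 at 83525778 to 83530518, Ccl3 at 83647843 to 83649378 and Ccl4 at 83648624 to 83664683 of the same chromosome (GRCm38.p6, the build the submitters name, matched by symbol). The spans of Ccl3 and Ccl4 overlap, and the strand setting of the counting is not given in the sources used here. Tnf and Ltb are neighbours on chromosome 17, at 35199367 to 35202007 and 35194507 to 35196305. Xcl1 is on chromosome 1 at 164931644 to 164935522 and Ifng on chromosome 10 at 118441046 to 118445894.

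RefSeq promoter sequence was at hand for 5 of the 7 genes. The 250 bases before the start are shown for Ccl3, Ifng, Xcl1 and Ltb. Among the CD8-only cells, the UMIs of Ccl3 and Ifng lay mainly in granzyme-positive cells. Xcl1 had 54 UMIs in those without granzyme and 1 in those with, though a difference in its shares was not detectable at equal depth. Ltb was found in all 4 classes. Capitals mark the letters TGTGGT on either strand, a core that RUNX factors recognise.

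Ccl3 (250 bases before the start, - strand, chr11:83649379-83649628): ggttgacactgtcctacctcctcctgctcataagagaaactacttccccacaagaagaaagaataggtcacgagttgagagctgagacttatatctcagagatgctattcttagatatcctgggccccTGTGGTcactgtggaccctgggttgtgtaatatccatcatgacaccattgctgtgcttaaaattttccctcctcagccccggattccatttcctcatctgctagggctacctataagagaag

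Xcl1 (250 bases before the start, - strand, chr1:164935523-164935772): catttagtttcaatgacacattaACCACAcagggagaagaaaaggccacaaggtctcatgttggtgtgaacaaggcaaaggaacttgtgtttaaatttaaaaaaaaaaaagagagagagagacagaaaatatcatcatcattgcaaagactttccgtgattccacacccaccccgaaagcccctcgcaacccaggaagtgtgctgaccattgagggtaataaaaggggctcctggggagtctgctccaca

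Ifng (250 bases before the start, + strand, chr10:118440796-118441045): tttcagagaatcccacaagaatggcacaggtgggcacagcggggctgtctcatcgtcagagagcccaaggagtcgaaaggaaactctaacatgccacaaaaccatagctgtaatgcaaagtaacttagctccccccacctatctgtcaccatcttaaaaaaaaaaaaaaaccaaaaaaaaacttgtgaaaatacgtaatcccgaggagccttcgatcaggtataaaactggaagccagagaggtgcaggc

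Ltb (250 bases before the start, + strand, chr17:35194257-35194506): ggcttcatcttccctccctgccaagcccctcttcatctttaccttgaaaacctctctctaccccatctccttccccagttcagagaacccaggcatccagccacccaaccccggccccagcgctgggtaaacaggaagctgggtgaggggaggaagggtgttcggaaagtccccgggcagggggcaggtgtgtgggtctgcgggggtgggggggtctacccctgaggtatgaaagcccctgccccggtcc

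TGTGGT was found once in the Ccl3 and once in the Xcl1 window, and 14.0% of 32536 mouse promoter windows of this length hold it. Neither TGANTCA, an AP-1 motif held by 6.73% of the windows, nor AGGTGTGA, a T-box motif held by 1.12%, was found in the windows of Ccl3, Xcl1, Ifng, Tnf and Ltb, on either strand, and TGTGGT was in none of the last 3. These are matches of letters and not measurements of binding.

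Granzyme-positive CD8-only cells carried far more Ccl5, Ccl4, Ccl3 and Ifng per UMI than granzyme-negative ones. Ltb was lower in the granzyme-positive cells, and Tnf was too sparse to compare. Xcl1 was also lower in them, on a single UMI, and a difference in its shares was not detectable at equal depth. Of the 6 genes with at least 20 UMIs in both CD8-only classes together, 4 (Ccl5, Ccl4, Ccl3 and Ifng) were at least 2-fold higher with granzyme, against 7.33% of 9690 genes tested in the same way. Xcl1 was the 1 of 6 that was at least 2-fold lower, against 10.3% of all genes. Ccl3, Ifng and Xcl1 had a single UMI in the lower class, and Ccl4 had 9. All of them passed the filter of 20 UMIs through the class where they were high. Their place in these counts was fixed by the filter, and the counts are no result. The median log2 ratio over all genes tested was 0.06, so the scale itself was close to level. The plot of pooled levels sets the 7 genes side by side in each class.

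**Figure D1:**
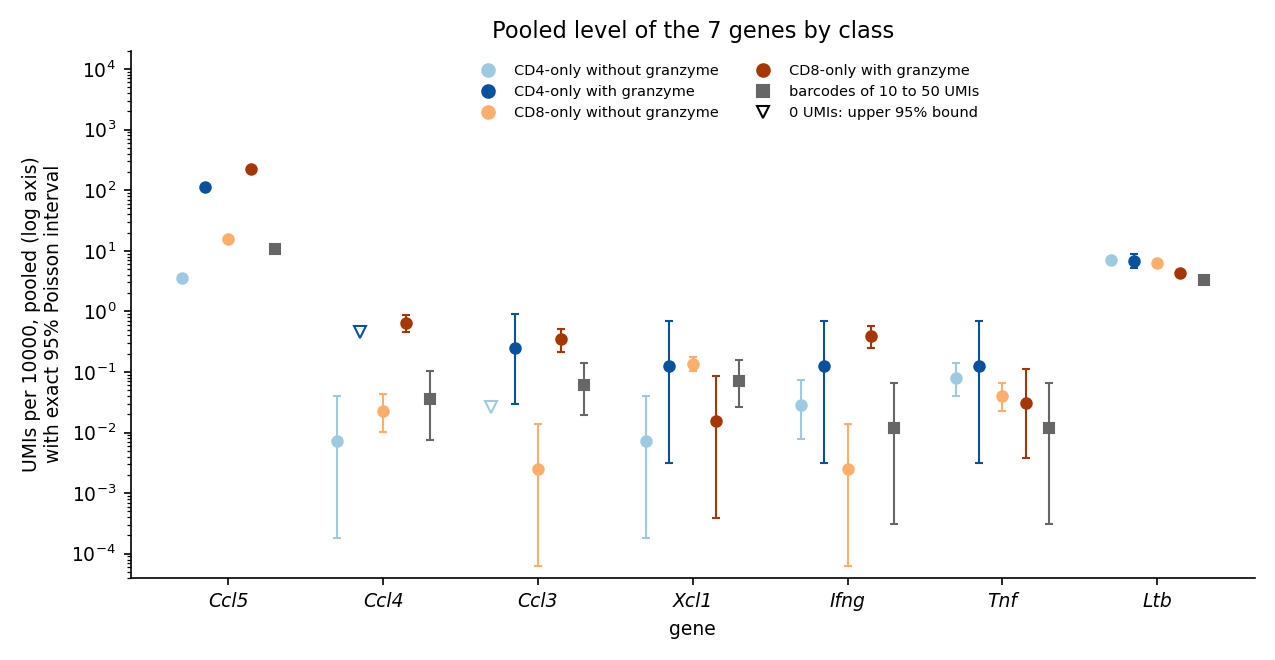
Pooled UMIs per 10000 of each gene (log axis) in the 4 classes and in barcodes of 10 to 50 UMIs (grey squares), with exact 95% Poisson intervals. Open triangles mark the upper bound where no UMI was found. Ccl5, Ccl4, Ccl3 and Ifng are highest in CD8-only cells with granzyme, while Ltb lies between 4.26 and 7.16 in all 4 classes.

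Ccl5, a CC chemokine that attracts T cells and monocytes, was found in 107 of 108 CD8-only cells with granzyme. Their Ccl5 level was 0 in the lowest cell, 238 UMIs per 10000 in the median cell and 550 in the highest, with quartiles of 157 and 310. The 611 cells without granzyme ranged from 0 to 317, their median was 0, and 179 of them (29.3%) had a Ccl5 UMI. The classes overlapped, but 104 of 108 granzyme-positive cells (96.3%) had 10 or more Ccl5 UMIs, against 89 of 611 granzyme-negative cells (14.6%). Pooled, Ccl5 took 226 UMIs per 10000 (222 to 229) with granzyme and 15.5 (15.2 to 15.9) without, which is 14.5-fold more (14.1 to 14.95).

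The shares were also compared at equal depth. With every cell drawn down to 2500 UMIs, and 5 and 56 shallower cells set aside, Ccl5 was found in 99.03% of the CD8-only cells with granzyme (94.7% to 99.98%) and 24.7% of those without (21.2% to 28.5%). The B cell marker-positive cells without T cell markers, which should lack Ccl5, gave a thinned share of 7.81% (2.59% to 17.3%). The median depths before thinning were 5332.5, 5609 and 3678 UMIs. The thinned share of CD8-only cells without granzyme therefore lay above that of B cells.

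CD4-only cells showed the same direction for Ccl5, in few cells. The 11 CD4-only cells with granzyme held 0, 0, 0, 1, 13, 17, 54, 179, 191, 234 and 238 Ccl5 UMIs, so that 4 cells held most of the 927. The cell with 238 also had at least 3 NK cell markers and no T cell receptor clonotype. In the 358 CD4-only cells without granzyme, 28 cells held 493 UMIs, and the 6 highest (164, 89, 57, 53, 52 and 27) held 89.7% of them. Thinned, 8.55% of these cells (5.50% to 12.6%) had a Ccl5 UMI. The intervals of this share and of the share in B cells overlap widely, so the share is not read as above that of B cells. Of these 358 cells, 14 had at least 3 markers of another cell type, among them the cell with 89 Ccl5 UMIs. Without such cells in either class, the log2 ratio with over without granzyme was 5.37 instead of 5.01. At an assumed 5% of the UMIs, free RNA would give 73.8 of the 493 Ccl5 UMIs, and the source of the rest was not tested.

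The pooled Ccl5 level was 115 UMIs per 10000 (107 to 122) in CD4-only cells with granzyme and 3.57 (3.26 to 3.90) without, a ratio of 32.1 (28.8 to 35.9). Ccl5 was the only gene of the family, of the 2 with at least 20 UMIs there, that was at least 2-fold higher, against 11.3% of 7786 genes. None was at least 2-fold lower, against 28.9% of all genes. The log2 ratio was 5.01, and it ranged from 3.44 where the class was called on Gzmk alone to 6.27 where 2 Cd4 UMIs were asked for. The 4-class plot of Ccl5 in each cell shows how few cells carry these sums.

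**Figure D2:**
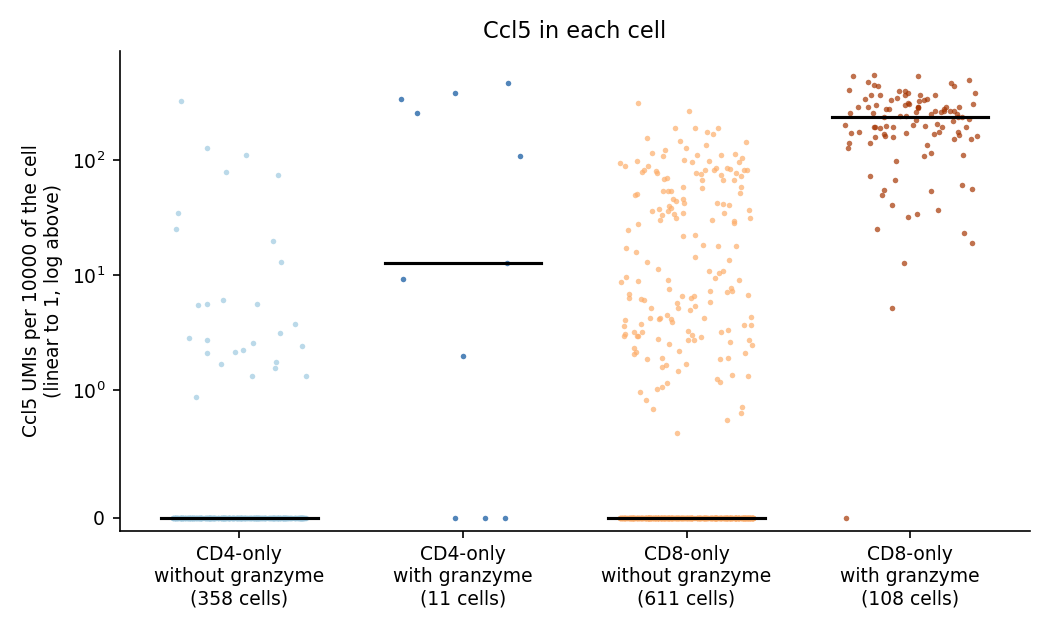
Each point is 1 cell; the vertical axis gives its Ccl5 UMIs per 10000 (linear to 1, logarithmic above), and black lines are class medians. Nearly all CD8-only cells with granzyme lie above 10, whereas the other classes hold cells at 0 together with cells that reach 317 to 475.

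Between the granzyme-negative classes, Ccl5 was 4.36-fold higher (3.98 to 4.79) in CD8-only than in CD4-only cells. Of 4 genes with at least 20 UMIs, Ccl5 and Xcl1 were at least 2-fold higher in CD8-only cells, against 4.11% of 10023 genes, and none was at least 2-fold lower, against 7.26%. Xcl1, with 1 UMI in CD4-only cells, again passed the filter through the class where it was high. The median log2 ratio over all genes was -0.24 in this comparison. For Ccl5 the log2 ratio of 2.12 became 3.12 with 2 coreceptor UMIs asked for, 2.73 without cells that had markers of another cell type, and 1.39 with the granzyme call on Gzmk alone.

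Free RNA held 890 Ccl5 UMIs, or 10.7 per 10000 (9.99 to 11.4). The CD8-only cells with granzyme stood 21.1-fold above this (19.7 to 22.6), the CD4-only cells with granzyme 10.7-fold (9.79 to 11.8) and the CD8-only cells without granzyme 1.46-fold (1.36 to 1.56). The CD4-only cells without granzyme were below it, at a ratio of 0.334 (0.299 to 0.373). The number of Ccl5 UMIs per Ltb UMI was 3.19 in free RNA, 52.98 (47.0 to 59.9) in CD8-only cells with granzyme, 2.49 (2.37 to 2.61) without, and 0.228 (0.169 to 0.302) in B cell marker-positive cells.

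Ccl4, also known as MIP-1 beta, had 41 UMIs in 28 of 108 CD8-only cells with granzyme and 9 UMIs in 7 of 611 without. No cell had more than 4. The levels were 0.640 UMIs per 10000 (0.459 to 0.868) and 0.0226 (0.0103 to 0.0429), a ratio of 28.3 (13.6 to 66.3). In CD4-only cells Ccl4 was all but missing, with 1 UMI in the 358 cells without granzyme and 0 in the 11 with, where the upper bound was 0.456 UMIs per 10000.

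Ccl3, also known as MIP-1 alpha and the neighbour of Ccl4, had 22 UMIs in 18 of the 108 cells and 1 UMI in the 611. This is 0.343 UMIs per 10000 (0.215 to 0.520) against 0.00251 (6.35e-05 to 0.0140), a ratio of 137 whose interval, from 22.1 to 5645, reflects the single UMI. The CD4-only cells held 2 Ccl3 UMIs in 2 cells with granzyme and none without, where the upper bound was 0.0267 UMIs per 10000. Free RNA carried 5 Ccl3 UMIs (0.0600 per 10000), and the CD8-only cells with granzyme were 5.72-fold above it (2.11 to 19.3).

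Ifng, the main type 1 effector cytokine, had 25 UMIs in 19 of the 108 cells and 1 UMI in the 611. Its levels were 0.390 (0.252 to 0.576) and 0.00251 (6.35e-05 to 0.0140) UMIs per 10000, a ratio of 155 (25.4 to 6382). CD4-only cells gave 4 Ifng UMIs in 3 cells without granzyme and 1 UMI with. At 2500 UMIs per cell, the share of the CD8-only cells with granzyme that had a UMI was 8.74% for Ifng (4.07% to 15.9%), 6.80% for Ccl3 (2.78% to 13.5%) and 17.5% for Ccl4 (10.7% to 26.2%). Without granzyme it was 0 of 555 cells for Ifng and Ccl3 (upper bound 0.662%) and 0.541% for Ccl4 (0.112% to 1.57%). Of the 37 Ifng UMIs in all called cells, 67.6% lay in the CD8-only cells with granzyme, which were 6.75% of the cells.

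About as many of the cells had none of Ccl4, Ccl3 and Ifng as had at least 1. Of the 108 cells, 57 had no UMI of Ccl4, Ccl3 or Ifng, 38 had 1 of the 3 genes, 12 had 2 and 1 cell had all 3. Of the 28 Ccl4 cells 17.9% also had Ccl3, against 16.7% of all 108 cells, and 28.6% had Ifng, against 17.6%. Of the 18 Ccl3 cells 11.1% had Ifng. These overlaps are 5, 8 and 2 cells. All 28 Ccl4, 18 Ccl3 and 19 Ifng cells also had Ccl5. At most 4 UMIs of these genes per cell limit what co-detection can show.

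The share of cells with Ifng or Ccl4 was larger in cells with more granzyme genes and that of Ccl3 was about level, and all intervals overlap among the granzyme-positive steps. Ifng was in 10.2% of the 59 CD8-only cells with 1 granzyme gene (3.82% to 20.8%), 23.7% of the 38 cells with 2 (11.4% to 40.2%) and 36.4% of the 11 cells with all 3 (10.9% to 69.2%). These shares are at the cells' own depth. Ccl4 was in 22.0%, 28.9% and 36.4% of them, and Ccl3 in 16.9%, 15.8% and 18.2%. The Ccl5 level was 178 (173 to 182), 299 (292 to 306) and 236 (225 to 248) UMIs per 10000. The share plot by number of granzyme genes gives the intervals, and the cells' median depths were 5065, 5379 and 5891 UMIs.

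**Figure D3:**
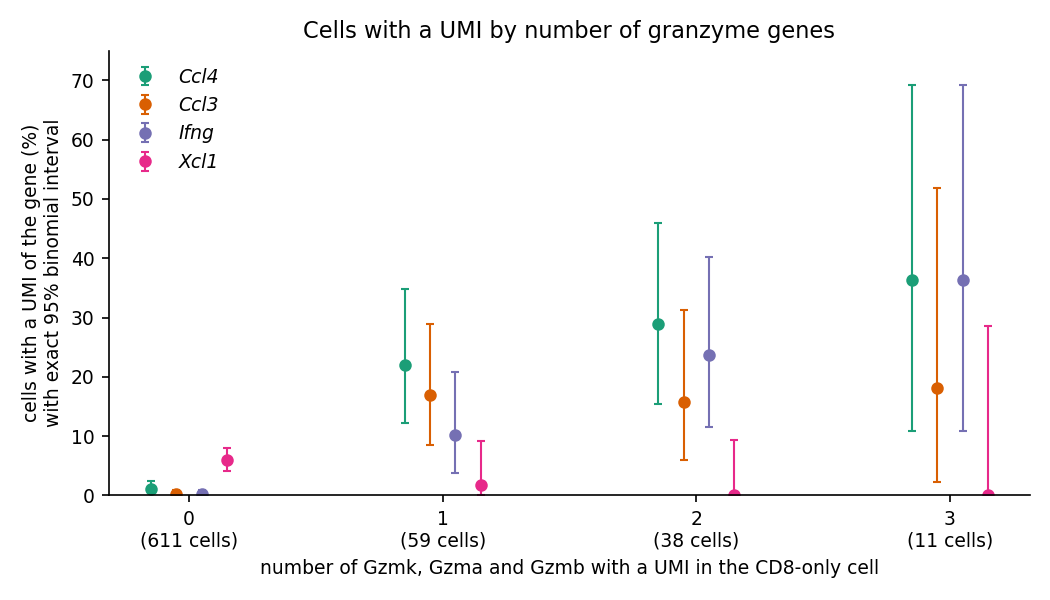
Share of CD8-only cells with a UMI of Ccl4, Ccl3, Ifng or Xcl1 (%, with exact 95% binomial intervals) by how many of Gzmk, Gzma and Gzmb had a UMI in the cell. The first 3 genes are near 0 in the 611 cells without granzyme and between 10.2% and 36.4% in the others, whereas Xcl1 is at 5.89% without granzyme.

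The pooled Ccl5 level also differed with the kind of granzyme found, by intervals that cover counting error and not the spread between cells. It was 222 UMIs per 10000 (216 to 228) in 40 cells with Gzmk and neither Gzma nor Gzmb, 136 (130.5 to 142) in 27 cells with Gzma or Gzmb and no Gzmk, and 288 (282 to 295) in 41 cells with both. Ifng counted 7, 3 and 15 UMIs in the same cells, and Ccl4 14, 7 and 20. Where only Gzma or Gzmb called the class, the cells with Gzmk alone joined the other side, and the log2 ratios became 3.12 instead of 3.86 for Ccl5, 3.53 instead of 4.82 for Ccl4, 3.94 instead of 7.10 for Ccl3 and 4.47 instead of 7.28 for Ifng. With Gzmk alone as the call, Ccl3 was at 4.34.

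By clonotype, 44 CD8-only cells with granzyme shared their T cell receptor with another clonotyped cell, 53 had one of their own and 11 had none assigned. Ccl5 was at 276 (269 to 283), 191 (187 to 196) and 260 (244 to 276) UMIs per 10000. Ccl4 was found in 16 of the 44 (36.4%, 22.4% to 52.2%) and 9 of the 53 cells (17.0%, 8.07% to 29.8%), with overlapping intervals. Cells that share a clonotype are not independent, and the intervals do not allow for this. The number of clonotypes among the 44 cells is not given here. Ccl3 had 7, 7 and 8 UMIs, so that 6 of the 11 cells with no clonotype held 8 of 22 UMIs. Of these 11 cells, 81.8% had at least 2 T cell markers.

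Xcl1, the ligand of Xcr1, was mainly found in CD8-only cells without granzyme. It had 54 UMIs in 36 of 611 CD8-only cells without granzyme (5.89%), 1 UMI in the 108 with granzyme and 2 UMIs in 2 CD4-only cells. The level was 0.135 UMIs per 10000 (0.102 to 0.177) without granzyme and 0.0156 (0.000395 to 0.0869) with, a ratio of 8.69 in favour of the cells without, where the single UMI leaves an interval of 1.49 to 349. Drawn down to 2500 UMIs per cell, Xcl1 was in 2.16% of the cells without granzyme (1.12% to 3.75%) and 0.971% of those with (0.0246% to 5.29%), with overlapping intervals, and the log2 ratio of with over without was -1.27 instead of -3.12. The direction was kept, but at equal depth a difference in the shares was not detectable. The median depths before thinning were 5609 UMIs without granzyme and 5332.5 with. Thinning left 13 of the 54 Xcl1 UMIs without granzyme and the 1 UMI with, so the thinned values rest on few counts. Against CD4-only cells without granzyme the ratio was 18.7 (3.22 to 753), again on 1 UMI, and its log2 value of 4.23 was 2.66 at equal depth. That UMI was in a cell with at least 3 markers of another cell type, and no ratio could be formed without such cells. Some cells had Xcl1 together with the other signals. Among the CD8-only cells without granzyme, 2 of 7 Ccl4 cells and the 1 Ccl3 cell also had Xcl1, and the 1 Xcl1 cell with granzyme had Ccl3.

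Cells with Xcl1 were mostly cells with Ccl5. Of the 36, 34 had a Ccl5 UMI, and the pooled Ccl5 level was 55.4 UMIs per 10000 (53.03 to 57.8) in them against 11.3 in the 575 without Xcl1. Xcl1 was found in 2 of 432 cells with no Ccl5 (0.463%, 0.0561% to 1.66%) and in 30 of 89 with 10 or more Ccl5 UMIs (33.7%, 24.0% to 44.5%). Per 10000 UMIs this was 0.00784 (0.000949 to 0.0283) against 0.548 (0.403 to 0.729). The cells with Xcl1 were deeper, with a median of 10897 UMIs against 5250, and the part of depth in the shares was not tested beyond this level per UMI. These tiers of Ccl5 were chosen after the values were seen.

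**Figure D4:**
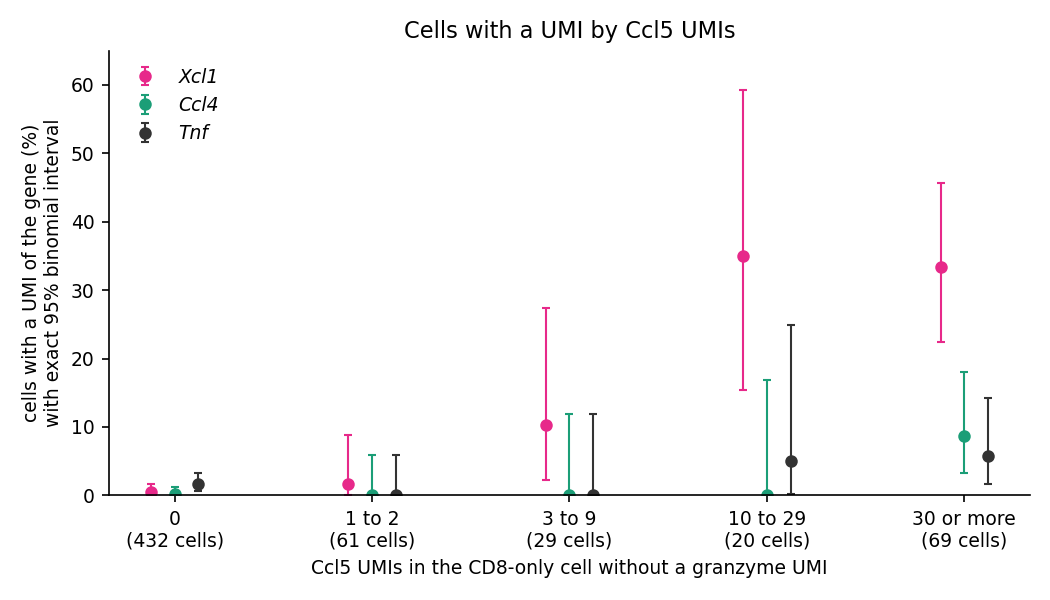
Share of CD8-only cells without granzyme that had a UMI of Xcl1, Ccl4 or Tnf (%, with exact 95% binomial intervals), by the Ccl5 UMIs of the cell. Xcl1 is in 0.463% of cells with no Ccl5 and in 33.3% of those with 30 or more, whose median depth was 10295 UMIs against 4879.5 in cells with none.

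The free RNA level of Xcl1 was 0.0720 UMIs per 10000, from 6 UMIs. The CD8-only cells without granzyme were 1.88-fold above it (0.811 to 5.36), an interval that includes equality of the levels. At an assumed 5% of the UMIs, free RNA would give 1.43 of the 54 Xcl1 UMIs in these cells. All 54 UMIs were in the 413 of these cells with a ribosomal share of at least 10%, and none in the 198 below it.

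Tnf, an early product of stimulated T cells, had 11 UMIs in 10 CD4-only cells without granzyme, 16 in 12 CD8-only cells without, 2 in 2 CD8-only cells with and 1 in the CD4-only cells with granzyme. The levels were 0.0796 (0.0397 to 0.142), 0.0401 (0.0229 to 0.0652), 0.0312 (0.00378 to 0.113) and 0.124 (0.00313 to 0.689) UMIs per 10000. All 4 intervals overlap. The CD8-only ratio of 0.777 with over without granzyme has an interval from 0.0867 to 3.31, so neither a difference nor its absence was detectable at this depth. Of the 12 Tnf cells among the CD8-only cells without granzyme, 5 (41.7%) had Ccl5, against 29.3% of all cells of the class.

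Ltb, the membrane-bound lymphotoxin chain, was the member found in most cells, with 4888 UMIs in 1194 of 1600. Per cell, CD4-only cells without granzyme ranged from 0 to 73.3 UMIs per 10000 with a median of 5.92, and CD8-only cells without from 0 to 35.5 with a median of 5.14. CD8-only cells with granzyme ranged from 0 to 22.8 with a median of 3.33, and the 11 CD4-only cells with granzyme had a median of 8.16. The classes overlapped throughout.

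Pooled, Ltb was at 4.26 UMIs per 10000 (3.77 to 4.79) in CD8-only cells with granzyme and 6.25 (6.01 to 6.50) without, a ratio of 0.681 (0.599 to 0.772) that did not reach 2-fold. In CD4-only cells it was 6.80 (5.13 to 8.86) with and 7.16 (6.72 to 7.62) without granzyme, with a ratio of 0.951 (0.711 to 1.25). The Ltb level also differed with the ribosomal share. It was 3.78 (3.19 to 4.43) in CD4-only cells without granzyme under the 10% limit against 8.49 (7.93 to 9.09) at or over it, and 3.02 (2.63 to 3.45) against 6.94 (6.66 to 7.23) in the CD8-only cells. Free RNA had 3.35 (2.97 to 3.76), which was within the interval of the cells under the limit in both classes.

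**Figure D5:**
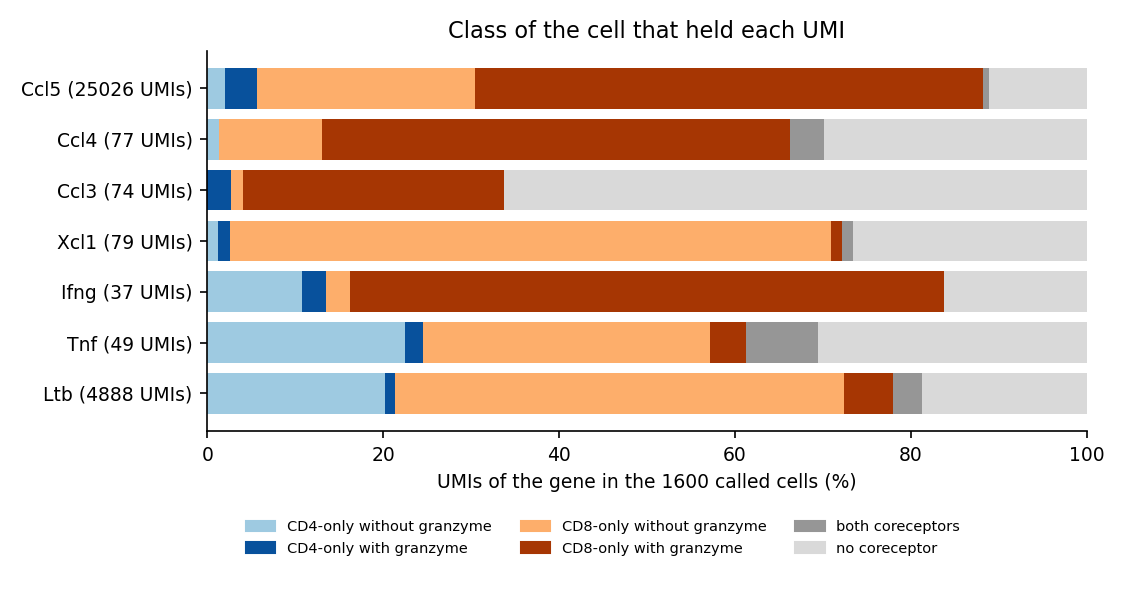
Each bar divides the UMIs of 1 gene in the 1600 called cells (%) by the class of the cell that held them. CD8-only cells with granzyme hold 57.8% of Ccl5, 53.2% of Ccl4 and 67.6% of Ifng, CD8-only cells without granzyme hold 68.4% of Xcl1, and cells without a coreceptor hold 66.2% of Ccl3.

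As the bars by class show, 49 of 74 Ccl3 UMIs and 23 of 77 Ccl4 UMIs were in the 463 cells with neither coreceptor. In the 232 of these with at least 2 T cell markers, Ccl3 had 2 and Ccl4 3 UMIs, and Ccl5 had 2139 in 53 cells. Among all called cells, whatever their class, 28 had both platelet and T cell markers. Of these, 13 carried Ccl5, with 876 UMIs in all, while Ccl5 was found in 25.8% of all called cells. Of 21 cells with platelet markers and no T cell markers, 1 had Ccl5, with 2 UMIs, or 0.438 per 10000 (0.0531 to 1.58).

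Markers of other cell types were looked at beside the granzyme call. The summed level of 4 NK cell markers (Ncr1, Klrb1c, Tyrobp, Fcer1g) was 0.874 UMIs per 10000 in CD8-only cells with granzyme and 0.396 without. It was 7.55 in the CD4-only cells with granzyme, where all 4 were found, against 0.275 without. Of the 11 CD4-only cells with granzyme, 1 had at least 3 NK cell markers, and the level without this cell was not computed. The 4 basophil and 4 neutrophil markers were all at 0 in both classes with granzyme, and neutrophil markers summed to 1.47 UMIs per 10000 in CD8-only cells without it. Without the 4 and 21 CD8-only cells that had at least 3 markers of another type, the log2 ratio with over without granzyme was 3.92 for Ccl5, 4.81 for Ccl4, 7.05 for Ccl3, 7.18 for Ifng, -3.10 for Xcl1 and -0.56 for Ltb. Of these, only that of Ccl5 left the counting interval of the ratio over all cells.

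Receptors of these signals were looked at in the CD8-only cells. Tnfrsf1b, a TNF receptor, was 2.71-fold higher (1.79 to 4.03) with granzyme, with 37 UMIs in the 108 cells and 85 in the 611. Ifngr2, a chain of the interferon gamma receptor, was lower, with 2 UMIs against 125 and a ratio of 0.0995 (0.0119 to 0.367), while its partner chain Ifngr1 was 1.28-fold higher (1.13 to 1.43). Tnfrsf1a had a ratio of 1.37 (0.761 to 2.34), and Xcr1 and Ltbr had 2 UMIs each in the 4 classes.

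Of 5 other TNF family ligands with at least 20 UMIs in CD8-only cells, 2 were at least 2-fold higher with granzyme, against 7.33% of all genes. A further 2 were at least 2-fold lower, against 10.3%. Lta, with 20 UMIs without granzyme and 1 with, passed the filter through the class where it was high, so the count of lower ligands is no result. Fasl, the death ligand of cytotoxic cells, was 9.80-fold higher (6.84 to 14.2) with granzyme and Tnfsf14 was 3.11-fold higher (1.23 to 7.29). Tnfsf8, the ligand of CD30, was lower, at 0.177 (0.107 to 0.275), and Lta, the partner of Ltb, had a ratio of 0.311 on 1 UMI, with an interval that includes 1 (0.00750 to 1.94). Tnfsf10 had 1.32 (0.668 to 2.44). Cd40lg, the helper T cell ligand of CD40, had 196 UMIs in CD4-only cells without granzyme and 1 in CD8-only cells without, a check of the CD4 call, and Tnfsf9 counted 24 UMIs in the 4 classes.

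Few other chemokines and cytokines were found. Of 14 further chemokines in the file, 8 had a UMI and 2 had at least 20 in the 4 classes. Ccl25 had 41 UMIs in CD4-only and 65 in CD8-only cells without granzyme. Per 10000 UMIs this was 0.297 and 0.163, a ratio of CD8-only over CD4-only of 0.550 (0.366 to 0.834). Ccl6, a myeloid chemokine, had 55 in the CD8-only cells without granzyme and 3 in those with, a ratio of 0.339 (0.0679 to 1.04). Ccl6 alone of the pair was at least 2-fold lower, against 10.3% of all genes, and its interval includes 1. It passed the filter of 20 UMIs through the class where it was high, so this call is no result. Of 16 further cytokines 9 had a UMI. Il16, Tgfb1 and Flt3l passed 20 UMIs, at ratios of 1.19 (0.967 to 1.46), 1.18 (0.928 to 1.497) and 1.30 (0.937 to 1.78) with over without granzyme, and none of the 3 was 2-fold apart. Il2, the growth factor of activated T cells, had 6 UMIs in all called cells.

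Of 11 regulators of these genes' transcription or mRNA decay, all had at least 20 UMIs and 2 were at least 2-fold higher with granzyme, against 7.33% of all genes, both T-box factors of effector T cells. None was at least 2-fold lower, against 10.3%. Eomes was 5.54-fold higher (4.46 to 6.88) and Tbx21 3.87-fold (2.85 to 5.21). Runx3, a factor of the CD8 lineage, was near level, at 1.17 (0.969 to 1.40), and was 3.94-fold higher (3.07 to 5.14) in CD8-only than in CD4-only cells without granzyme. Klf13, which acts on the Ccl5 promoter in T cells, was at 0.740 (0.610 to 0.891). The NF-kappaB genes Nfkb1, Rel and Relb had ratios of 0.794, 0.921 and 0.648, each with an interval that includes 1. Of the mRNA decay factors, Zfp36l1 was lower, at 0.698 (0.542 to 0.887), and Zfp36l2 higher, at 1.48 (1.28 to 1.71). Zfp36 had 1.31 (0.987 to 1.71) and Zc3h12a 0.858 (0.427 to 1.58), with intervals that include 1.

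Across the 1088 cells of the 4 classes, the genes most like Ccl5 by Pearson's r of ln(1 + UMIs per 10000), among 8702 genes, were Nkg7 (0.697), S100a6 (0.687), Lgals1 (0.649), Gzmk (0.607) and Hopx (0.605). Nkg7 and Gzmk encode cytotoxic granule proteins. Ccl4 was most like Cx3cr1 (0.441), Klrg1 (0.358) and Ccl5 (0.358), of which the first 2 mark effector T cells. For Xcl1 these were Ly6c2 (0.292), Il2rb (0.2497) and Klra7 (0.249), weak values in sparse counts. The cells share 1 library and differ in depth, so the correlations are descriptions.

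Ltb was most like the ribosomal protein genes Rps19 (0.447), Rpl35a (0.441), Rpl13 (0.441), Rpl37 (0.436) and Rps28 (0.435). Over the 739 cells with a ribosomal share of at least 10%, an alternative chosen after seeing the data, the 5 genes became Relb (0.243), Shisa5 (0.236), Ccr7 (0.234), Il7r (0.223) and Lef1 (0.213). The ribosomal protein genes left the list and the highest value was 0.243. These cells were chosen by the ribosomal share itself, which narrows the spread of those genes. Their leaving the list is therefore no result about Ltb. Over the same cells Nkg7 (0.717) still led for Ccl5, whereas for Xcl1 the first 3 became Ifngas1 (0.347), Klra7 (0.294) and Il2rb (0.291), without Ly6c2.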

How the data were processed

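Blood T cells of 1 vehicle-treated mouse were measured. The authors processed the reads with Cell Ranger (version 4 per the file headers) against GRCm38 (the submitters' processing notes). The authors deposited a matrix of raw UMI counts for all barcodes, not normalized, and a contig table with a UMI count for each contig. The 7 genes and all gene lists were chosen with earlier results of these data known. Cells were barcodes with at least 1331 UMIs, the 99th percentile of the 3000 largest totals divided by 10. Depth was 1334 to 18399 UMIs per cell, so that a gene with few UMIs was often missed. Levels are UMIs summed over a class per 10000 UMIs of that class. Shares between the classes were also computed after thinning to 2500 UMIs (seed 1), and those by granzyme genes, clonotype or Ccl5 tier are unthinned. Ratios needed 20 UMIs over both classes, except that all 7 genes were compared between the CD8-only classes, where Tnf had 2 and 16. The genes that define the classes were left out of the genes tested, and no ratio has a test. Named genes are the 7, the genes that define the classes, cell type markers, list members with at least 20 UMIs in the 4 classes, and for members with at least 50 UMIs the most similar genes. Xcr1, Ltbr, Il2 and Ccl9 had fewer than 20 UMIs there and are named for their counts alone. Scripts used Python 3.11.15, NumPy 2.4.6, SciPy 1.17.1, pandas 2.3.3 and Scanpy 1.11.5 (Scrublet for doublets) and were tested on simulated data. Predicted doublets were kept. Alternatives varied the cell limit, the calls, the cells left out, thinning and the weighting of cells. The combination-treated mouse and public reference data were not analysed here. The result of 1 gene of the receptor list is not reported here.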

Additional observations from a re-analysis of the deposited data

Results flagged for a closer look

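Some of the genes were also present above free RNA in cells outside the compared classes. Basophil markers (Mcpt8, Prss34, Fcer1a, Cpa3) without T cell markers were found in 3 cells, which held 11, 6 and 13 Ccl3 UMIs and 2, 1 and 6 Ccl4 UMIs, or 12.04 (8.12 to 17.2) and 3.61 (1.65 to 6.86) UMIs per 10000, against 0.0600 and 0.0360 in free RNA. All 3 had no Ccl5 UMI, and they held 30 of the 74 Ccl3 UMIs of the called cells.

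NK cell markers without T cell markers were found in 13 cells with a median of 4364 UMIs. All 13 had Ccl5, at 148 UMIs per 10000 (139 to 158), and 4 had Xcl1, with 9 UMIs at 1.40 per 10000 (0.641 to 2.66). Ccl4, Ccl3 and Ifng had 4 UMIs each, at 0.623 per 10000 (0.170 to 1.60). This interval holds the levels of these genes in CD8-only cells with granzyme (0.640, 0.343 and 0.390), so they were not particular to that class. Ltb was found in 1 of these cells. None of the 13 had a clonotype.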

How the results depend on the processing

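The 13 log2 ratios were recomputed under 14 settings, which gave 173 values. Of these, 141 stayed within the counting interval of the reported ratio, 32 left it and none turned the direction of a ratio whose interval excluded 0. For Ccl5 in CD8-only cells (3.86), the values outside were 3.63 in clonotyped cells alone, 3.66 without cells of low ribosomal share, 3.92 without cells with markers of another type, 3.80 with 2 coreceptor UMIs, 3.99 with 2 granzyme UMIs, 3.12 with the call on Gzma or Gzmb, 3.65 with the call on Gzmk, 3.91 with free RNA subtracted at an assumed 5% of the UMIs, 4.29 as a mean over cells and 4.26 thinned to 2500 UMIs. With the call on Gzma or Gzmb, Ccl4 was at 3.53, Ccl3 at 3.94 and Ifng at 4.47, and with the call on Gzmk Ccl3 was at 4.34, since cells with the granzyme left out join the other class. For Ccl5 in CD4-only cells (5.01), the same settings gave in turn 4.41, 4.54, 5.37, 6.27, 5.17, 4.30, 3.44, 5.23, 5.90 and 5.43, and 4.71 without the highest cell. For Ccl5 in CD8-only over CD4-only cells without granzyme (2.12), they were 1.92 without cells of low ribosomal share, 2.73 without cells with markers of another type, 3.12 with 2 coreceptor UMIs, 1.39 with the call on Gzmk, 2.31 with free RNA subtracted, 2.30 as a mean over cells and 1.91 thinned. Within wide intervals, thinning also took Xcl1 from -3.12 to -1.27 in CD8-only cells and from 4.23 to 2.66 between CD8-only and CD4-only cells, and Tnf in CD8-only cells from -0.36 to 0.84. The cause of the other shifts was not tested. In 9 cases a class had no UMI left and no ratio could be formed, among them Ccl3 and Ifng thinned to 2500 UMIs and Xcl1 with 2 coreceptor or granzyme UMIs. Scrublet called 10 doublets (0.625%), and leaving them out moved no ratio outside its interval. No paired analysis was possible because there was 1 sample. Counts of 1 to 3 UMIs limit the ratios of Ccl3, Xcl1, Ifng and Tnf.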

Other observations

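Ccl5 in cells left after enrichment was uneven. Of 84 cells with B cell markers and no T cell markers, 10 had Ccl5, and 1 of them held 52 of the 61 UMIs. Of 22 cells with neutrophil markers, 2 held all 70 Ccl5 UMIs. The 84 B cell marker-positive cells had no UMI of Ccl4, Ccl3, Xcl1 or Ifng, and Ltb was found in 67 of them, at 7.88 UMIs per 10000 (6.96 to 8.88). The 6 cells with monocyte markers and the 24 with erythroid markers held no Ccl4, Ccl3, Xcl1, Ifng or Tnf. No cell had 3 SCLC tumour markers without T cell markers. The basophil marker-positive cells also held the chemokines Ccl6 (41, 76 and 95 UMIs) and Ccl9 (24, 8 and 3 UMIs).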
